A study of Mus musculus with 6 samples.

Results

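The genes described here are 7 of the 32285 mouse genes in the feature lists: the high mobility group A genes Hmga2 and Hmga1, the Igf2 mRNA-binding genes Igf2bp1, Igf2bp2 and Igf2bp3, and the Lin28 genes Lin28a and Lin28b. They were found by symbol, and all 7 were in the tables. The genes were proposed with their RNA levels in these libraries already known, so the levels and differences of RNA below are a description of them, and nothing is supported with them. No threshold of expression was part of the choice.

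The study profiled nuclei of mouse brain tissue with lesions by 10x Multiome, an assay that reads RNA and open chromatin (ATAC-seq) from the same nucleus. Plasmids were electroporated in utero into the ganglionic eminences of C57BL/6J embryos, and tissue was taken once the animals showed symptoms. All libraries carry Foxr2 overexpression, driven by the ubiquitous CAG promoter from a piggyBac construct with GFP, and Foxr2 p53LOF also received Cas9 with a guide against Trp53, the gene of p53. The tissue therefore mixes electroporated cells with cells of the host brain, and lesions of Foxr2 alone are nonproliferative by the study's account. RNA and ATAC counts were used from 1 library of each genotype, Foxr2 p53LOF replicate 1 and Foxr2 alone replicate 1. Of Foxr2 alone replicate 2, only the list of peaks and 1650 barcodes were used. With 1 library per genotype there were no replicates and no test was possible. All intervals are at 95% and cover counting error only, and every difference is one between these libraries.

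After filtering, 8345 nuclei were kept of Foxr2 p53LOF and 8327 of Foxr2 alone, with medians of 5534 and 3632 UMIs (unique molecular identifiers, the counted RNA molecules). Trp53 RNA stood at 52.5 CPM (defined below) in precursor and astrocyte-like glia of Foxr2 p53LOF against 18.9 CPM in those of Foxr2 alone, so it was not lower with the guide, and such counts do not show whether the gene was cut. Foxr2 had 2562 and 144 UMIs and GFP 19427 and 1152. The libraries shared 140 barcode sequences, of which 94 were among the kept nuclei. Clusters were named from marker genes, and the members, related genes and vector features were hidden from the clustering. OPC-like (oligodendrocyte precursor), COP-like (committed oligodendrocyte precursor) and astrocyte-like nuclei were also summed as precursor and astrocyte-like glia. This sum held 2281 nuclei of Foxr2 p53LOF, from astrocyte-like clusters 4 and 21, COP-like cluster 5 and OPC-like cluster 16. It held 573 nuclei of Foxr2 alone, mostly from astrocyte-like cluster 12 and OPC-like cluster 16. Oligodendrocyte-like nuclei were nearly all of cluster 3 in Foxr2 p53LOF (1526 nuclei) and of cluster 0 in Foxr2 alone (3021), and immune-like nuclei were mostly of clusters 6, 7 and 20 (803, 699 and 146) against cluster 10 (415). Neuron-like nuclei were mostly of clusters 2, 17 and 19 against 1, 8, 9, 11, 13 and 14. Apart from OPC-like cluster 16, different clusters thus made up each class in the libraries, so a difference within a class is also one between clusters. The cluster names were rebuilt from markers, and 609 and 109 nuclei of the libraries stayed unnamed.

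HMGA proteins bind the minor groove of AT-rich DNA and bend it, which alters how chromatin is packed and which factors reach it. Hmga2 is active in embryonic and neural stem cells, is silent in most adult tissues and returns in many tumors. LIN28 proteins bind the precursors of let-7 microRNAs and keep them from maturing. The let-7 microRNAs in turn repress Hmga2, the Igf2bp genes and the Lin28 genes themselves through sites in their 3′ UTRs. IGF2BP proteins bind mRNAs, many of them with N6-methyladenosine, and raise their stability or steer their translation. As a group, these genes are known as oncofetal, that is, high in the embryo, low after birth and often high again in cancer. The term need not hold for each member in each cell type. In this tissue, taken after birth, Lin28b RNA was read in most neuron-like nuclei, as given below.

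The mature sequences of let-7 are shown because they are the shared link between the members. RefSeq on GRCm38.p6, the assembly behind mm10, lists 8 mature let-7 5p sequences, and all share the same seed of 7 bases, at positions 2 to 8, printed in capitals. The RNA reads do not measure mature microRNAs, so no level of let-7 is given.
let-7a-5p: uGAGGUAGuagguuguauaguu
let-7b-5p: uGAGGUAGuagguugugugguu
let-7i-5p: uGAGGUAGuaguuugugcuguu

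Each member has at least 1 match to the let-7 seed in its annotated 3′ UTR. The letters searched were CTACCTC, the reverse complement of the seed, on the strand of the transcript, in the longest annotated 3′ UTR of each gene. Hmga2, Igf2bp1 and Lin28b each hold 4 matches, Lin28a holds 2, and Hmga1, Igf2bp2 and Igf2bp3 hold 1 each. Of 21173 genes with a 3′ UTR in GENCODE, 10.1% hold at least 1 match and 0.0567% hold 4 or more. The UTR lengths differ, so the density is also given: Hmga2 has 1.33 matches per kb and Igf2bp3 0.472, against 0.0733 over all genes. A match is a description of the letters and not a measured site. Windows of 22 bases around matches of the members that the results turn on are printed 5′ to 3′ as in the transcript, in DNA letters and with the seed match in capitals. The first site of Hmga2 lies at chr10:120364224-120364245, 58 bases after the stop codon, and the second at chr10:120362987-120363008. The sites of Igf2bp2, Igf2bp3 and the first site of Lin28b lie at chr16:22059473-22059494, chr6:49086787-49086808 and chr10:45381022-45381043, all on the minus strand of mm10.
Hmga2 first site: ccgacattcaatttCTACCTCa
Hmga2 second site: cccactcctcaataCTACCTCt
Igf2bp2 site: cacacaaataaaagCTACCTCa
Igf2bp3 site: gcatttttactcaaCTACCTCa
Lin28b first site: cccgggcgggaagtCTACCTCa

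The promoters of Hmga2, Igf2bp2 and Igf2bp3 are shown because peaks of open chromatin that differed between classes lay on or beside them. Each stretch is the 250 bases before the RefSeq start on GRCm38.p6, 5′ to 3′ on the minus strand, with motif matches in capitals. Of the 7 members, 6 were matched in the promoter table and Igf2bp1 was not. The motifs searched on both strands were the GC box GGGCGG, the CCAAT box CCAAT, the E-box CACGTG, an ETS motif CCGGAAG and a forkhead motif TGTTTAC. These motifs stand in 32.9%, 34.5%, 6.05%, 7.05% and 3.09% of 27025 mouse promoters of the same length, respectively. The Hmga2 promoter (chr10:120476470-120476719) holds 1 GC box and has a G+C share of 56.4%. The Igf2bp2 promoter (chr16:22163300-22163549) holds 2 GC boxes at 77.2% G+C, higher than 97.6% of the promoters. The Igf2bp3 promoter (chr6:49214955-49215204) holds 1 CCAAT box and 1 E-box. None of these 3 windows has the letters of the ETS or the forkhead motif, which says nothing of the factors.
Hmga2: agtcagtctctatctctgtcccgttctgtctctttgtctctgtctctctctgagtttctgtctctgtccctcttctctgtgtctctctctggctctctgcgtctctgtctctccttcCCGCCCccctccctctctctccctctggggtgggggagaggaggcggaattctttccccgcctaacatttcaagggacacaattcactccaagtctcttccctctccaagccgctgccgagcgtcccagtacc
Igf2bp2: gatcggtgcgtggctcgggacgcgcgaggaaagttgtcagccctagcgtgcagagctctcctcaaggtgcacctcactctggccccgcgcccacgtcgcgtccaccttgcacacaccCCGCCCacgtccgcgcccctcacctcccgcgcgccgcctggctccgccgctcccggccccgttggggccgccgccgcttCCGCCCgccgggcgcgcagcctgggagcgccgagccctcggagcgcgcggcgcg
Igf2bp3: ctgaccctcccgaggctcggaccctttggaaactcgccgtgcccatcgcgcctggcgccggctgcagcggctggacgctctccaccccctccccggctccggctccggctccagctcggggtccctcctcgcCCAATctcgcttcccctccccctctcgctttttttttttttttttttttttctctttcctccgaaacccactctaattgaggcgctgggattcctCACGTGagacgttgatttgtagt

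The first question was which cells held the RNA of the DNA-binding members. Hmga2 (ENSMUSG00000056758, chr10:120361275-120476469, minus strand) was read almost wholly in Foxr2 p53LOF, with 25358 UMIs there and 12 in Foxr2 alone. In Foxr2 p53LOF, 91.97% of these UMIs lay in precursor and astrocyte-like glia, a class with 36.25% of all kept UMIs. The gene overlaps 1700006J14Rik and 9230105E05Rik on the other strand and Mir763 on its own. Each level is in counts per 1000000 (CPM), scaled to the total UMIs of the class. Hmga2 stood at 1108 CPM [1088, 1129] in COP-like and at 1078 CPM [1058, 1097] in astrocyte-like nuclei of Foxr2 p53LOF. The level was 116 CPM [108, 125] in immune-like nuclei, 28.3 CPM [13.0, 53.8] in OPC-like nuclei, 23.5 CPM [19.1, 28.7] in oligodendrocyte-like nuclei and 6.54 CPM [5.57, 7.62] in neuron-like nuclei. The COP-like and astrocyte-like intervals overlapped, as did the OPC-like and oligodendrocyte-like ones, and the other steps in this order did not. The log2 ratio of COP-like over astrocyte-like nuclei, 0.04 [0.003, 0.077], still left COP-like nuclei slightly higher.

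In Foxr2 alone, Hmga2 had 0 UMIs in the OPC-like, astrocyte-like and immune-like nuclei, 3 UMIs in oligodendrocyte-like nuclei and 9 UMIs in neuron-like nuclei, where 9 UMIs made 0.273 CPM [0.125, 0.519]. Over precursor and astrocyte-like glia the values were 23321 UMIs at 1076 CPM [1063, 1090] in Foxr2 p53LOF, against 0 of 1750693 UMIs in Foxr2 alone. Against a floor of 3 counts over the class, Hmga2 was at least 628-fold higher in Foxr2 p53LOF. Of the 23321 UMIs, 11995 were of astrocyte-like cluster 4 and 11209 of COP-like cluster 5. These clusters had 3 and 1 nuclei in Foxr2 alone, so this bound also compares different clusters. In OPC-like nuclei, of the same cluster in both libraries, Hmga2 had 9 UMIs at 28.3 CPM in Foxr2 p53LOF. Foxr2 alone had 0 UMIs there, with a floor of 6.55 CPM. The libraries also differed in vector RNA. GFP had 13391 UMIs in precursor and astrocyte-like glia of Foxr2 p53LOF and 244 in those of Foxr2 alone. The log2 ratio was 2.15 [1.97, 2.34], and the part of GFP in the difference of Hmga2 was not tested. Over astrocyte-like nuclei alone, a comparison added after the data were seen, the bound on the log2 ratio was 8.85. The low levels of other classes had log2 ratios of the same sign, 4.58 [3.62, 5.74] in neuron-like and 4.95 [3.36, 7.25] in oligodendrocyte-like nuclei, again between different clusters. In bulk sums of this kind, more cells with the RNA and more RNA per cell cannot be told apart by the CPM, and the share of nuclei is given for that reason.

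**Figure D1:**
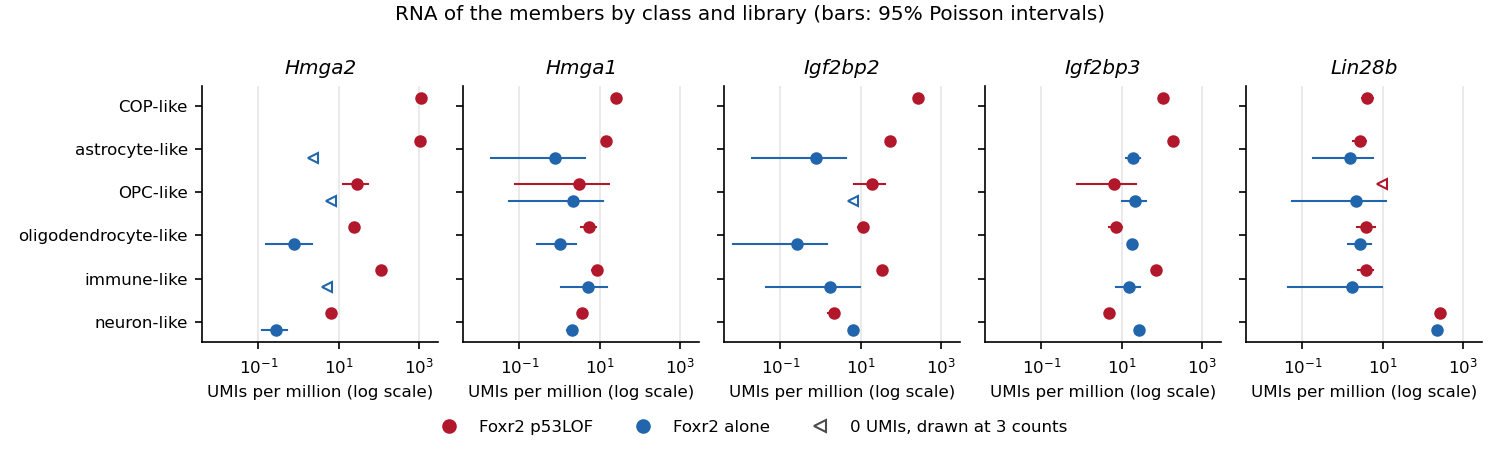
RNA of 5 members by class (rows) in CPM on a log axis, with Foxr2 p53LOF in red and Foxr2 alone in blue. Bars are 95% Poisson intervals and open triangles mark 0 UMIs, drawn at 3 counts. Hmga2 stands above 1000 CPM in COP-like and astrocyte-like nuclei of Foxr2 p53LOF and at 0 UMIs in astrocyte-like nuclei of Foxr2 alone, while Lin28b stands above 200 CPM in neuron-like nuclei of both libraries.

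To set classes of unequal depth side by side, each nucleus was thinned to 1000 UMIs. A UMI of Hmga2 was then present in 36.4% [34.4, 38.4] of precursor and astrocyte-like glia of Foxr2 p53LOF, 828 of 2275 nuclei, with 6 shallower nuclei left out. Unthinned, the share was 66.4%. Immune-like nuclei, the background class, gave 3.65% [2.79, 4.68] after thinning, with 34 left out, and 8.84% unthinned. Oligodendrocyte-like nuclei gave 2.25% and neuron-like nuclei 0.977%, at or below the immune-like background, and are not read as expression. Median depths before thinning were 7911 UMIs in the glia, 2716 in the immune-like, 2455 in the oligodendrocyte-like and 9928 in the neuron-like nuclei. In Foxr2 alone, 0 of 572 precursor and astrocyte-like glia had a UMI of Hmga2, which allows a share of up to 0.524%, taken as 3 counts of 572. That limit is on nuclei with a UMI, and not on nuclei expressing the gene.

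Within the glia of Foxr2 p53LOF, Hmga2 was uneven. Of astrocyte-like nuclei, 27.1% had no UMI of Hmga2, the upper quartile was 11 UMIs and the highest nucleus had 126. Of COP-like nuclei, 37.1% had none, the upper quartile was 15 and the highest had 189. Both classes thus mixed nuclei at 0 with nuclei far above their medians of 3 and 2 UMIs. The astrocyte-like clusters also differed from each other. Cluster 4, led by Adgrv1 and Rfx4, held 1144 CPM of Hmga2, whereas cluster 21, led by Agt, Aqp4 and Gja1, held 147 CPM. The latter cluster had the genes of mature astrocytes in front, among them the water channel Aqp4 and the gap junction gene Gja1.

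The immune-like level of Hmga2 also came mostly from a small cluster. Cluster 20, with the cytotoxic lymphocyte genes Prf1 and Gzmb among its leading genes, held 434 of the 732 immune-like UMIs, at 527 CPM. Glial markers were also present there. The median COP marker of cluster 20 stood at 0.401 of its level in the highest cluster, against 0.059 and 0.089 in the other immune-like clusters 6 and 7. The medians of OPC, astrocyte and oligodendrocyte markers in cluster 20 were lower, at 0.108, 0.137 and 0.068. Its median immune marker stood at 0.209, near the 0.226 and 0.229 of clusters 6 and 7. The part of glial RNA in the Hmga2 level of cluster 20 was not tested. Cluster 7, with the microglial genes P2ry12 and Siglech, held 73.8 CPM, and cluster 6, with S100a8 and Msr1, held 30.9 CPM. Precursor and astrocyte-like glia stood above immune-like nuclei by a log2 ratio of 3.21 [3.11, 3.32], and without cluster 20, an alternative added after seeing the data, by 4.31. The unnamed nuclei of Foxr2 p53LOF held another 1040 UMIs of Hmga2, at 397 CPM [373, 422]. Of these, 767 lay in the 97 nuclei of cluster 22, at 637 CPM [593, 684], which has Adgrv1 and Gm30524 among its leading genes as astrocyte-like cluster 4 has. The other unnamed clusters stood at 29.2 CPM (cluster 23), 208 CPM (cluster 18) and 214 CPM (cluster 15).

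**Figure D2:**
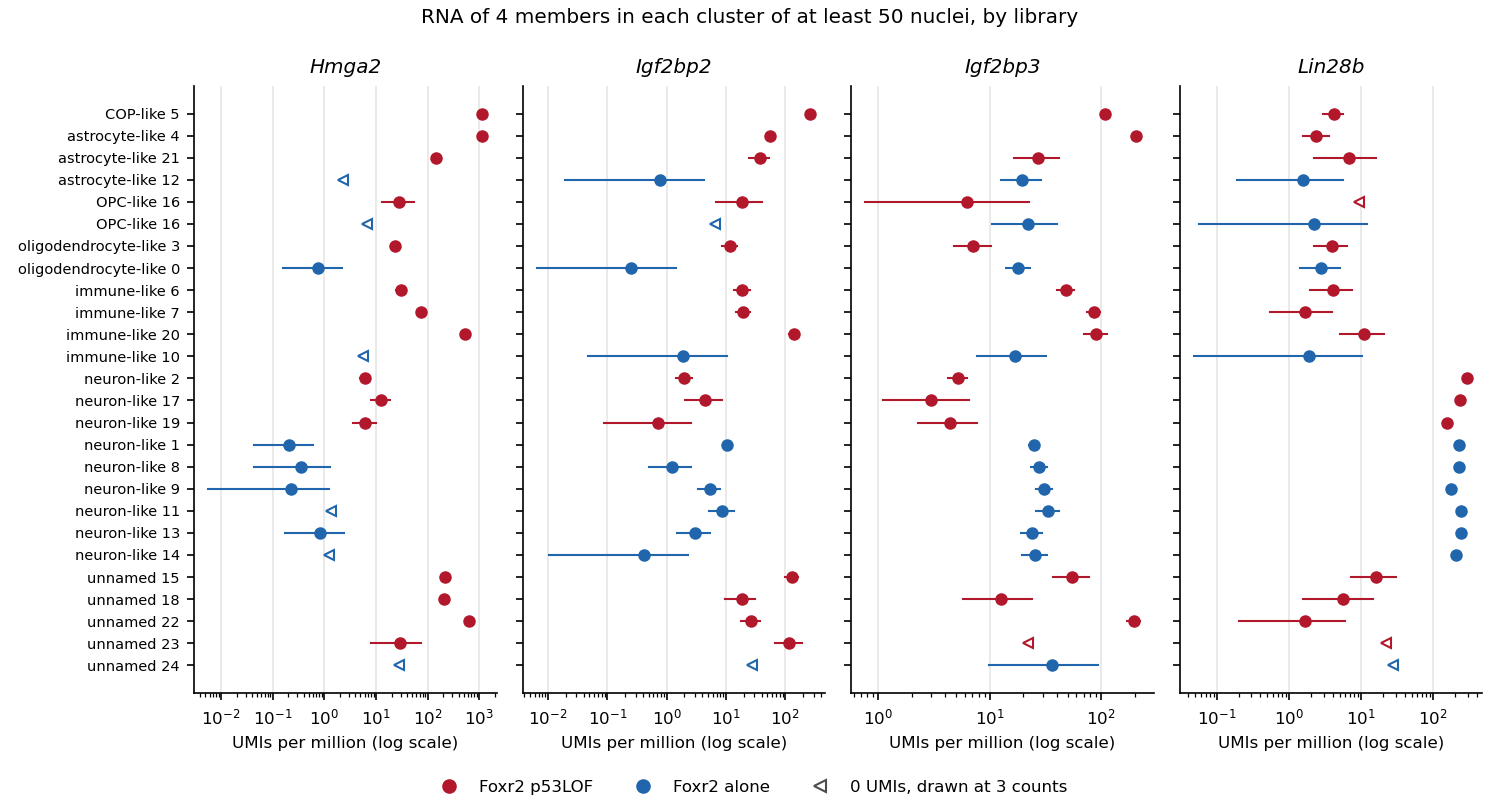
RNA of Hmga2, Igf2bp2, Igf2bp3 and Lin28b in every cluster of at least 50 nuclei (rows, with the class and cluster number) in CPM on a log axis, Foxr2 p53LOF in red and Foxr2 alone in blue. Bars are 95% Poisson intervals and open triangles mark 0 UMIs, drawn at 3 counts. Hmga2 reaches 1144 CPM in astrocyte-like cluster 4 and 147 CPM in astrocyte-like cluster 21, and Igf2bp2 is highest in COP-like cluster 5, at 264 CPM.

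Hmga1 (ENSMUSG00000046711, chr17:27556497-27563674, plus strand) gave far fewer UMIs, 622 in Foxr2 p53LOF and 78 in Foxr2 alone. It overlaps Gm49774 and AI413582 on the other strand, and has the near copy Hmga1b, with 27 and 0 UMIs, so its counts are uncertain to that extent. In Foxr2 p53LOF it stood at 25.1 CPM [22.1, 28.4] in COP-like, 14.6 CPM [12.5, 17.02] in astrocyte-like, 8.40 CPM [6.29, 10.98] in immune-like, 5.39 CPM [3.38, 8.16] in oligodendrocyte-like and 3.67 CPM [2.96, 4.50] in neuron-like nuclei. Only the COP-like and astrocyte-like intervals were free of overlap with the level next below. Over precursor and astrocyte-like glia the levels were 19.3 CPM with p53LOF against 1.14 CPM in Foxr2 alone, the latter from 2 UMIs, with a log2 ratio of 4.08 [2.22, 7.13]. Among neuron-like nuclei it was 3.67 against 2.03 CPM, with 0.85 [0.38, 1.33] as the log2 ratio.

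The second question was the same for the mRNA-binding members. Igf2bp2 (ENSMUSG00000033581, chr16:22059009-22163299, minus strand) was a gene of the COP-like nuclei. In Foxr2 p53LOF it stood at 264 CPM [255, 275] in COP-like nuclei (2676 UMIs) and at 53.7 CPM [49.5, 58.2] in astrocyte-like nuclei (603 UMIs). The COP-like nuclei, with 16.9% of the UMIs of the library, thus held 71.5% of those of Igf2bp2. Immune-like nuclei had 34.9 CPM [30.4, 39.8], OPC-like nuclei 18.9 CPM [6.93, 41.1], oligodendrocyte-like nuclei 11.8 CPM [8.67, 15.6] and neuron-like nuclei 2.11 CPM [1.58, 2.76]. The OPC-like interval, from 6 UMIs, overlapped its neighbours in this order, and the other steps did not overlap. After thinning, 20.5% [17.9, 23.3] of COP-like nuclei had a UMI of Igf2bp2 (74.1% unthinned), against 4.73% [3.64, 6.03] of astrocyte-like nuclei (18.5% unthinned). The immune-like background was 1.85% [1.25, 2.64] (5.81% unthinned). Oligodendrocyte-like nuclei gave 1.19% [0.707, 1.87] (2.95% unthinned) and neuron-like nuclei 0.355% (2.22% unthinned), at or below that background, and are not read as expression. The oligodendrocyte-like interval overlaps that of the background, of which cluster 20, with its glial markers, held 115 of 220 UMIs.

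In Foxr2 alone, Igf2bp2 had 1 UMI in all precursor and astrocyte-like glia, 0.571 CPM [0.0145, 3.18]. Foxr2 p53LOF stood above it by a log2 ratio of 8.05 [5.57, 13.36] in that class, where 2676 of the 3285 UMIs of Foxr2 p53LOF were COP-like and Foxr2 alone had 1 nucleus of COP-like cluster 5. Over astrocyte-like nuclei alone, the comparison added after the data were seen, it was 6.11 [3.63, 11.4]. Neuron-like nuclei went the other way, with 53 UMIs at 2.11 CPM in Foxr2 p53LOF against 213 UMIs at 6.46 CPM [5.63, 7.39] in Foxr2 alone, which made -1.61 [-2.08, -1.17]. These neuron-like levels lay under 10 CPM in both libraries, and so below the minimum used for counts past 2-fold. Within Foxr2 alone they varied between clusters, from 10.5 CPM (150 UMIs) in cluster 1, led by Penk and Rarb, genes of striatal neurons, to 0.416 CPM (1 UMI) in cluster 14. Different clusters made up the neuron-like class of each library, so the difference is also one between kinds of neuron-like nuclei.

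Igf2bp3 (ENSMUSG00000029814, chr6:49085223-49214957, minus strand) had the opposite order of glial levels. In Foxr2 p53LOF it stood at 193 CPM [185, 201] in astrocyte-like and 108 CPM [102, 115] in COP-like nuclei. Immune-like nuclei followed with 71.3 CPM [64.9, 78.2], then oligodendrocyte-like nuclei with 7.11 CPM [4.76, 10.2], OPC-like nuclei with 6.29 CPM [0.762, 22.7] and neuron-like nuclei with 4.94 CPM [4.11, 5.89]. The last 3 levels overlapped within counting error. After thinning, a UMI of Igf2bp3 was present in 216 of 1290 astrocyte-like and 87 of 892 COP-like nuclei, against 83 of 1618 immune-like nuclei. Igf2bp3 overlaps Malsu1 and Gm18010 on the other strand. Of the astrocyte-like level, cluster 4 held 205 CPM and cluster 21 held 27.3 CPM. The immune-like level was spread over its clusters, with 48.2 CPM in cluster 6, 85.5 CPM in cluster 7 and 89.9 CPM in cluster 20. Immune-like nuclei of this library are thus not taken as a background for Igf2bp3.

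In Foxr2 alone, Igf2bp3 was low in all classes. It stood at 26.7 CPM (881 UMIs) in neuron-like, 21.8 CPM [10.5, 40.2] in OPC-like, 19.4 CPM [12.6, 28.7] in astrocyte-like, 18.1 CPM [14.1, 22.8] in oligodendrocyte-like and 15.5 CPM [7.10, 29.5] in immune-like nuclei. Once nuclei were thinned, 2.63% [2.17, 3.17] of neuron-like nuclei had a UMI (17.7% unthinned), against 1.42% [0.388, 3.59] of immune-like nuclei (2.11% unthinned). The immune-like share rests on 4 nuclei, and the intervals overlap, so the thinned shares do not show whether neuron-like nuclei stood above this background. By CPM, the neuron-like interval lay above the oligodendrocyte-like one and overlapped the other 3. The part of free RNA in these low levels was not tested. Median depths before thinning were 7357 UMIs in the neuron-like and 1135 in the immune-like nuclei, of which 144 were left out as too shallow.

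The difference of Igf2bp3 between the libraries was not in the same direction in every class. In precursor and astrocyte-like glia it was 151 CPM in Foxr2 p53LOF against 19.99 CPM in the other library, a log2 ratio of 2.92 [2.44, 3.44], and in immune-like nuclei, of clusters 6, 7 and 20 against cluster 10, the log2 ratio was 2.20 [1.26, 3.34]. In neuron-like nuclei it was 4.94 against 26.7 CPM, a log2 ratio of -2.44 [-2.72, -2.16], and in oligodendrocyte-like nuclei 7.11 against 18.1 CPM, with -1.35 [-2.02, -0.70]. After thinning, 9 of 2251 neuron-like and 13 of 1513 oligodendrocyte-like nuclei of Foxr2 p53LOF had a UMI of Igf2bp3, against 83 of 1618 immune-like nuclei. The immune-like nuclei of Foxr2 p53LOF themselves held 71.3 CPM of Igf2bp3, so they do not serve as a background for this gene. Whether the 2 low levels of Foxr2 p53LOF reflect expression was not tested. Among neuron-like clusters with at least 50 nuclei in the library, the 3 of Foxr2 p53LOF, at 3.00 to 5.19 CPM, lay below the 6 of Foxr2 alone, at 23.7 to 33.5 CPM.

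Igf2bp1 (ENSMUSG00000013415, chr11:95957163-96005940, minus strand) had 11 UMIs in Foxr2 p53LOF, of which neuron-like nuclei held 7, and 1 in Foxr2 alone. COP-like nuclei had 0 UMIs of Igf2bp1 in Foxr2 p53LOF, with an upper bound of 0.365 CPM. Its RNA was thus not detectable above a few molecules in any class, beside more than 3000 UMIs of each of its paralogs in the glia of the same library.

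The third question was about the Lin28 genes, which hold back let-7. Lin28a (ENSMUSG00000050966, chr4:134003330-134018841, minus strand) had 4 UMIs in Foxr2 p53LOF and 0 in Foxr2 alone, and no level can be set on it. Lin28b (ENSMUSG00000063804, chr10:45376620-45486395, minus strand) had 7041 UMIs in Foxr2 p53LOF and 7386 in Foxr2 alone. Of these, 98.2% and 99.1% lay in neuron-like nuclei, which held 41.99% and 83.2% of all kept UMIs. Its neuron-like level was 275 CPM [269, 282] with p53LOF and 222 CPM [217, 227] without, a log2 ratio of 0.31 [0.26, 0.36]. Among neuron-like clusters it ranged from 153 to 298 CPM in Foxr2 p53LOF and from 174 to 243 CPM in Foxr2 alone, so that the ranges overlapped.

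In the glia that held Hmga2, Lin28b was near the background. It stood at 4.15 CPM [2.99, 5.61] in COP-like and 2.67 CPM [1.80, 3.81] in astrocyte-like nuclei of Foxr2 p53LOF, against 3.80 CPM [2.44, 5.66] in immune-like and 3.92 CPM [2.24, 6.37] in oligodendrocyte-like nuclei. Those 4 levels overlapped. At 1000 UMIs per nucleus, Lin28b had a UMI in 22.6% [20.9, 24.4] of neuron-like nuclei of Foxr2 p53LOF (82.7% unthinned), and the share in Foxr2 alone was 20.2% [18.96, 21.4] (71.5% unthinned). The immune-like background was 0.247% and 0.355% (1.27% and 0.235% unthinned). A neuron-like nucleus had a median of 2 UMIs of Lin28b in Foxr2 p53LOF and 1 in Foxr2 alone.

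For a background to these differences, all genes with at least 10 CPM in 1 of the sums compared were counted past a 2-fold difference, higher or lower in Foxr2 p53LOF. In precursor and astrocyte-like glia, 4 members (Hmga2, Hmga1, Igf2bp2 and Igf2bp3) had enough CPM and all 4 were at least 2-fold higher, where 21.7% of all genes were higher and 25.4% lower. In immune-like nuclei 3 members, Hmga2, Igf2bp2 and Igf2bp3, were higher of the 3 that had enough CPM, with 17.2% of genes higher and 21.7% lower. Cluster 20, which gave 434 of the 732 UMIs of Hmga2 in that class, had 1 nucleus in Foxr2 alone. In oligodendrocyte-like nuclei Hmga2 and Igf2bp2 were higher and Igf2bp3 lower, with 13.3% of genes higher and 20.6% lower. In neuron-like nuclei, of Igf2bp3 and Lin28b, Igf2bp3 was lower and none was higher, with 13.4% of genes higher and 18.9% lower. The members were chosen on these levels, and nothing is read from their counts.

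Within Foxr2 p53LOF, where the library is the same, these 4 members were at least 2-fold higher in precursor and astrocyte-like glia than in oligodendrocyte-like nuclei, beside 28.2% of genes higher and 10.1% lower. Of the genes past 2-fold there, 73.5% were higher, and 58.2% with median-of-ratios size factors, and the median of all genes was 0.39. The log2 ratios were 5.52 [5.23, 5.82] for Hmga2, 4.41 [3.88, 4.99] for Igf2bp3, 3.69 [3.28, 4.13] for Igf2bp2 and 1.84 [1.23, 2.53] for Hmga1. They were also higher than in immune-like nuclei, beside 19.4% of genes higher and 16.0% lower, with 3.21 for Hmga2, 2.12 [1.92, 2.33] for Igf2bp2, 1.20 [0.79, 1.64] for Hmga1 and 1.08 [0.94, 1.23] for Igf2bp3. These sizes depended on the settings beyond the intervals. Igf2bp2 had 2.95 with doublets kept, 2.99 without cluster 20 and 3.14 with minimums of 1000 genes and peak counts, Hmga2 had 4.51, 4.31 and 4.41, and as UMIs per nucleus Igf2bp3 had 2.40 and Hmga1 2.52. Between COP-like and astrocyte-like nuclei, a comparison added after seeing the data, 8.94% of genes were higher and 10.4% lower in COP-like nuclei. Igf2bp2 alone of the members passed 2-fold there, with 2.30 [2.17, 2.43]. Hmga2 had 0.04 [0.003, 0.077] and Igf2bp3 -0.83 [-0.94, -0.73].

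GFP of the electroporated vector was then used to ask how the RNA of the members followed vector RNA across classes of Foxr2 p53LOF. Hmga2 had 171 UMIs [166, 176] per 100 GFP UMIs in COP-like and 179 [174, 184] in astrocyte-like nuclei. Of the astrocyte-like clusters, cluster 4 stood at 194 and cluster 21 at 18.6 [14.99, 22.9]. The ratio was 46.2 [42.3, 50.5] in immune-like, 12.4 [9.93, 15.4] in oligodendrocyte-like and 8.56 [7.25, 10.0] in neuron-like nuclei. The immune-like clusters 6, 7 and 20 stood at 12.6, 41.8 and 98.2. Hmga2 and GFP thus did not keep 1 ratio over the classes, nor over the clusters of a class. Over the clusters of both libraries their levels still rose together, with a Pearson correlation of 0.839, described below. For Igf2bp3 the ratio was 28.4 [25.5, 31.6] in immune-like, 32.0 [30.5, 33.6] in astrocyte-like and 16.7 [15.7, 17.8] in COP-like nuclei. These are averages of unlike clusters, with 19.6, 48.4 and 16.7 in immune-like clusters 6, 7 and 20, and 34.8 and 3.44 in astrocyte-like clusters 4 and 21. For Igf2bp2 the COP-like ratio of 40.8 [39.0, 42.7] was the highest among the named classes, with 8.91 in astrocyte-like and 13.9 in immune-like nuclei. The part of free RNA in the immune-like levels was not tested.

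**Figure D3:**
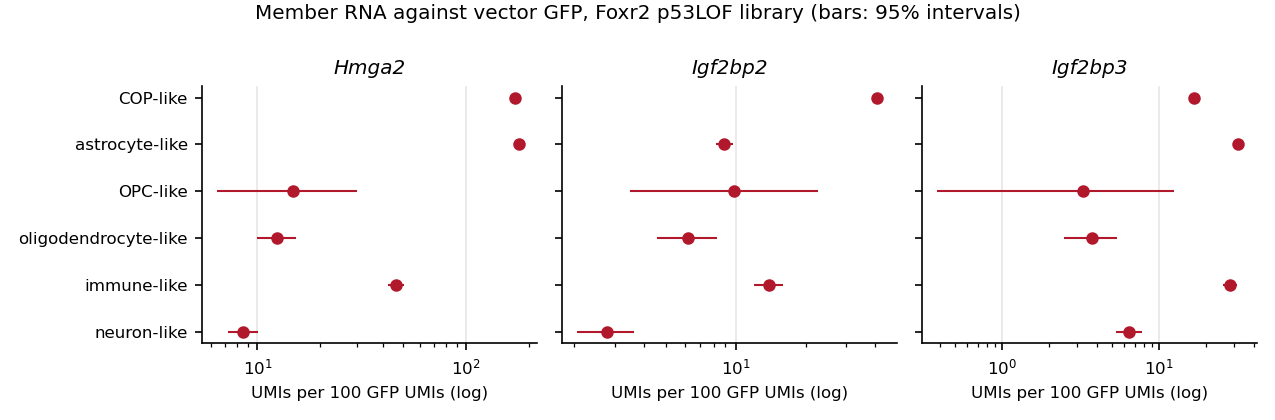
UMIs of Hmga2, Igf2bp2 and Igf2bp3 per 100 UMIs of vector GFP in each class of Foxr2 p53LOF, on a log axis, with 95% intervals as bars. Hmga2 stands at 171 and 179 in COP-like and astrocyte-like nuclei and at 8.56 in neuron-like nuclei.

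Nuclei with and without a GFP UMI after thinning were also compared within precursor and astrocyte-like glia of Foxr2 p53LOF. A UMI of Hmga2 was present in 39.2% [35.9, 42.5] of 873 nuclei with GFP and in 34.7% [32.2, 37.2] of 1402 nuclei without, and these intervals overlap. Hmga1 was present in 3.21% [2.14, 4.60] against 1.21% [0.708, 1.93], which do not overlap. Within COP-like nuclei it was 4.61% [2.66, 7.38] against 1.28% [0.518, 2.63], again without overlap. Within astrocyte-like nuclei it was 2.36% [1.22, 4.08] against 1.28% [0.616, 2.34], which overlap. Over all these glia, Igf2bp2 had 12.6% against 9.70% and Igf2bp3 14.3% against 12.8%, with overlapping intervals. Nuclei without a UMI of GFP at this depth can still carry the vector.

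The same glia were divided by a UMI of Mki67 or Top2a, genes of dividing cells. Igf2bp3 was present in 18.9% [14.3, 24.1] of 265 nuclei with either gene and in 12.6% [11.2, 14.2] of 2010 nuclei without, and the intervals do not overlap. Within astrocyte-like nuclei the shares were 22.9% [16.5, 30.4] and 15.9% [13.8, 18.2], and within COP-like nuclei 13.8% [7.91, 21.7] and 9.20% [7.26, 11.4], with overlap in each. Hmga2 had 38.9% [33.0, 45.0] against 36.1% [34.0, 38.2], and Igf2bp2 11.7% against 10.7%. Neither was separated by these marks of division beyond counting error. In immune-like nuclei, Igf2bp3 was present in 1.88% [0.693, 4.05] of 319 nuclei with GFP and in 5.93% [4.71, 7.35] of 1299 without, and in 9.55% [5.85, 14.5] of 199 nuclei with Mki67 or Top2a and in 4.51% [3.49, 5.72] of 1419 without. Neither pair of intervals overlaps. Both splits pool immune-like clusters 6, 7 and 20, which differ in Igf2bp3 and in its ratio to GFP. No split was made within a cluster, so nothing is read of Igf2bp3 and vector RNA inside a cluster.

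Pairs of members were then counted in the same nuclei. Of 828 glia with a UMI of Hmga2 after thinning, 17.8% [15.2, 20.5] also had Igf2bp3, against 10.9% [9.29, 12.6] of those without. The 147 nuclei with both were 17.8% of the nuclei with Hmga2 and 48.4% of those with Igf2bp3. For Igf2bp2 the shares were 12.8% [10.6, 15.3] with Hmga2 and 9.68% [8.20, 11.3] without, which overlap. Igf2bp2 and Igf2bp3 were found together in 27 nuclei, 10.98% [7.36, 15.6] of the nuclei with Igf2bp2 and 8.88% of those with Igf2bp3. Without Igf2bp2, 13.7% [12.2, 15.2] of nuclei had Igf2bp3, and the intervals overlap. These shares pool unlike classes. For Igf2bp3 with and without Hmga2 they were 21.7% [18.2, 25.5] and 13.45% [11.1, 16.1] within astrocyte-like nuclei, themselves of clusters 4 and 21. Within COP-like nuclei they were 11.3% [8.02, 15.4] and 8.92% [6.73, 11.5], which overlap. For Igf2bp3 with and without Igf2bp2 they were 10.9% and 9.45% within COP-like and 11.5% and 17.0% within astrocyte-like nuclei, with overlap in each.

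Across the 26 sums of a cluster in a library with at least 50 nuclei, the genes whose log2(CPM + 1) was most like each member were sought among 15581 genes. Neighbouring sums share a library and its free RNA, so the Pearson correlations are a description. For Hmga2 the closest was Tfap2a, a transcription factor of the neural crest (r = 0.983), then Aldh1a3, an enzyme of retinoic acid synthesis (0.965), Mlkl, the effector of necroptosis (0.962), Tnc, a matrix glycoprotein of glia and gliomas (0.960), and Gbp4 (0.960). Tfap2a stood at 122 CPM in COP-like and 117 CPM in astrocyte-like nuclei of Foxr2 p53LOF, and had 0 UMIs in astrocyte-like nuclei of Foxr2 alone. For Igf2bp2 the closest were S1pr3 (0.914), Emp1, Timp1, Helz2 and Areg, and for Igf2bp3 Mms22l (0.870), Chaf1a, Clns1a, Fance and Ndc1. Chaf1a is a subunit of the chromatin assembly factor of replication, and Fance belongs to the Fanconi repair pathway. For Hmga1, with 700 UMIs in all, they were 1110038B12Rik (0.833), Sdc1, Tubb5, Ahnak2 and Ppid. For Lin28b, Morc2b, Gm32014, A230006K03Rik and 4930447C04Rik were among the closest. Among the members themselves, Hmga2 was most like Igf2bp2 (0.847), less so Hmga1 (0.679) and Igf2bp3 (0.378), and went against Lin28b (-0.377). Vector GFP had 0.839 with Hmga2, 0.747 with Igf2bp2, 0.682 with Hmga1, 0.233 with Igf2bp3 and -0.559 with Lin28b.

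Lists of related genes were compared in precursor and astrocyte-like glia, Foxr2 p53LOF over Foxr2 alone. They were drawn up with earlier results of these data known, so they support nothing, and their counts stand beside the 21.7% of all genes that were higher and 25.4% that were lower. The median log2 ratio over all genes tested was 0.01. Of 13 measured genes of let-7 maturation and Lin28 partners, 6 were at least 2-fold higher and 0 lower, with a median of 0.87. Trim25, a cofactor of the decay of pre-let-7, had 1990 UMIs in Foxr2 p53LOF against 21, a log2 ratio of 2.94 [2.32, 3.63]. Khsrp, which aids let-7 processing, had 1.60 [1.15, 2.08], the nuclear exporter Xpo5 1.41 [1.01, 1.84] and the Microprocessor subunit Dgcr8 1.35 [1.01, 1.72]. Of 21 other known let-7 targets, 12 were higher and 1 was lower, with a median of 1.23. The cyclin gene Ccnd1 stood at 201 against 17.1 CPM, a log2 ratio of 3.55 [3.04, 4.12], the cell cycle phosphatase Cdc25a at 2.92 [1.94, 4.14], the nuclease and helicase Dna2 at 2.92 [1.99, 4.06] and the transcription factor gene Myc at 2.60 [1.22, 4.48].

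Of 8 oncofetal growth and imprinted genes, 5 were higher and 1 lower. The hyaluronan receptor Cd44 had 237 against 9.14 CPM, a log2 ratio of 4.70 [3.998, 5.51]. The imprinted genes Mest, Cdkn1c and Dlk1 had 3.01 [2.13, 4.08], 2.67 [1.68, 3.88] and 2.54 [1.30, 4.17]. Cdkn1c is known as an inhibitor of the cell cycle, unlike the growth genes of this list. The other high mobility group genes went differently from Hmga2. Of 9, none was 2-fold higher and 2 were lower, Hmgb3 with 12.4 against 42.3 CPM (-1.77 [-2.15, -1.38]) and Hmgb1 with 139 against 280 CPM (-1.01 [-1.15, -0.87]). Of 18 other RNA-binding genes and m6A factors, 5 were higher and none lower, led by Qk (1.70 [1.62, 1.77]) and Hnrnpa2b1 (1.68 [1.53, 1.83]), followed by Syncrip and Ythdc2 (1.39 and 1.16).

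The same lists were counted within Foxr2 p53LOF. Over immune-like nuclei, where 19.4% of all genes were higher in precursor and astrocyte-like glia and 16.0% lower, 1 of 13 genes of let-7 maturation was higher and 0 were lower, and of 22 let-7 targets 1 was higher and 3 were lower. Of 6 oncofetal growth and imprinted genes, 5 were higher and 0 lower, with a median of 1.23. Of 9 other high mobility group genes and of 18 other RNA-binding genes, 2 each were higher and 0 lower. Over oligodendrocyte-like nuclei, where 28.2% of all genes were higher and 10.1% lower, 3 of 13 genes of let-7 maturation were higher, and 11 of 22 let-7 targets were higher and 1 was lower. In the same comparison 3 of 7 oncofetal genes, 4 of 9 high mobility group genes and 5 of 18 RNA-binding genes were higher and 0 lower.

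The last question was whether chromatin near the start sites of the members was open in the classes that held their RNA. ATAC counts were summed per class and scaled to 1000000 peak counts of that class, a unit written here as counts per M. Peaks were called by the authors in each library on its own. Within 10 kb of the start sites in the files there were 20 peaks in Foxr2 p53LOF, 14 in Foxr2 alone replicate 1 and 14 in Foxr2 alone replicate 2. Of the 20, 10 overlapped by at least 1 base a peak in both Foxr2 alone libraries, 5 of them near Hmga1, and 6 overlapped a peak in neither. Such overlaps were not counted over all peaks of Foxr2 p53LOF, so nothing is read from these numbers. Over all genes, the libraries held 112924, 135201 and 99112 peaks in the same order.

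Hmga2 was the sole member with a peak within 10 kb in Foxr2 p53LOF and none in either Foxr2 alone library. Over all mouse genes, 4.15% had at least 1 peak in Foxr2 p53LOF and none in Foxr2 alone replicate 1, a looser rule that leaves replicate 2 aside. Foxr2 alone replicate 1 had 3 nuclei of astrocyte-like cluster 4 and 1 of COP-like cluster 5. Whether a peak open only in such nuclei could be called there was not tested. The first of the Hmga2 peaks, chr10:120476491-120477374, is intergenic, begins just before the start site and covers most of the promoter printed above. It held 37.4 counts per M [34.2, 40.8] in precursor and astrocyte-like glia of Foxr2 p53LOF, 40.6 [36.0, 45.6] in astrocyte-like and 35.4 [30.9, 40.4] in COP-like nuclei. Immune-like nuclei had 3.86 [2.45, 5.79], oligodendrocyte-like nuclei 2.59 [1.27, 4.69] and neuron-like nuclei 2.41 [1.53, 3.61]. The glial values lay far above the other classes, and the astrocyte-like and COP-like intervals overlapped, as those of their RNA did. The second peak, chr10:120472723-120473572, overlaps an exon of Hmga2 and was weak, at 3.40 per M [2.49, 4.53] in the glia.

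**Figure D4:**
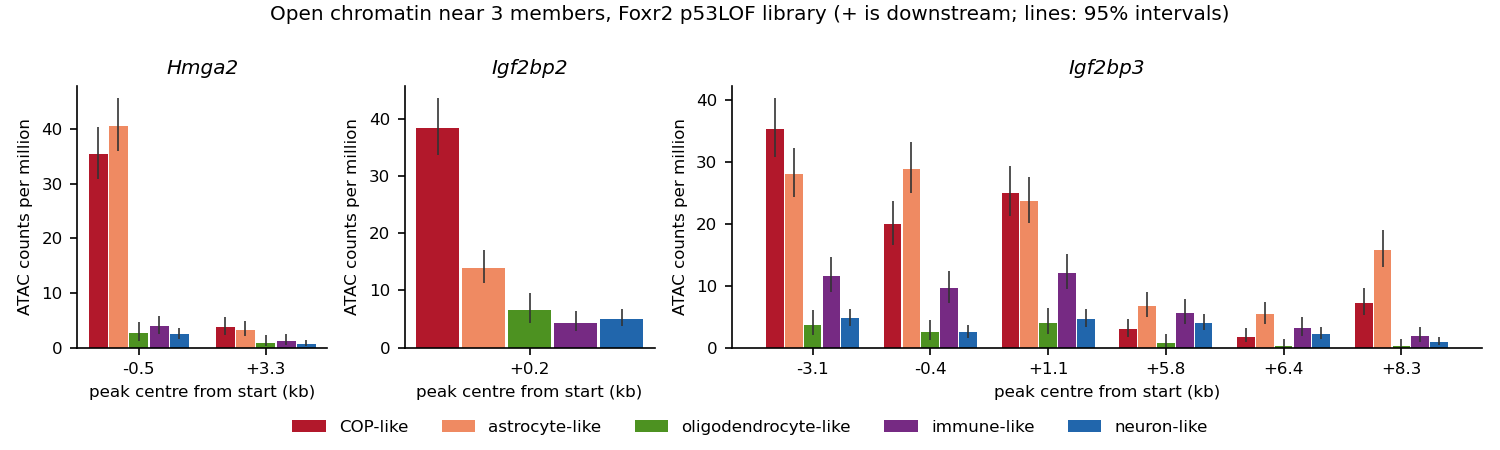
ATAC counts per M (1000000 peak counts of the class) at each peak near Hmga2, Igf2bp2 and Igf2bp3 in Foxr2 p53LOF, by class, against the distance of the peak's centre from the start site in kb. Lines are 95% intervals. The peak just before the start of Hmga2 holds 35.4 and 40.6 in COP-like and astrocyte-like nuclei, and that at the start of Igf2bp2 holds 38.4 and 13.9.

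At Igf2bp2, the peak over the start site, chr16:22162653-22163560 with an exon of the gene, was present in all 3 libraries. In Foxr2 p53LOF it held 38.4 per M [33.7, 43.5] in COP-like, 13.9 [11.3, 16.98] in astrocyte-like, 6.53 [4.28, 9.53] in oligodendrocyte-like, 4.36 [2.85, 6.39] in immune-like and 5.02 [3.70, 6.66] in neuron-like nuclei. COP-like nuclei thus led at the start site as they did in RNA, with a log2 ratio over astrocyte-like nuclei of 1.46 [1.12, 1.82]. In Foxr2 alone the matching peak held 6.99 per M [6.07, 8.01] in neuron-like nuclei and 0.891 [0.108, 3.22] in precursor and astrocyte-like glia, the same order as its RNA there. Counts per M are scaled to different peak sets in the libraries, so values are compared within a library.

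Igf2bp3 had 6 peaks in Foxr2 p53LOF. The 3 nearest the start, chr6:49213458-49214335 in an exon and the intergenic chr6:49215045-49215750 and chr6:49217593-49218506, were shared with both Foxr2 alone libraries. Over precursor and astrocyte-like glia these held 24.2, 24.2 and 30.99 per M. The first intergenic peak was higher in astrocyte-like nuclei, 28.9 [25.1, 33.2] against 19.9 [16.6, 23.8] in COP-like nuclei. The exon peak held 23.6 and 25.1 and the far intergenic peak 28.1 [24.3, 32.4] and 35.3 [30.8, 40.3] in astrocyte-like and COP-like nuclei, the reverse of the order of the RNA, with overlapping intervals. At the far peak the log2 ratio of COP-like over astrocyte-like nuclei was 0.33 [0.04, 0.61], slightly higher in COP-like nuclei. The intron peak chr6:49206225-49207112 overlapped none in either Foxr2 alone library. It stood at 15.9 per M in astrocyte-like and 7.21 in COP-like nuclei, a log2 ratio of -1.14 [-1.67, -0.63], COP-like over astrocyte-like. Immune-like nuclei had 1.93 per M, neuron-like nuclei 0.889 and oligodendrocyte-like nuclei 0.246, the last from 2 counts.

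Beside all peaks with at least 10 counts per M in 1 of the classes, the peaks near the members stood as follows. Against immune-like nuclei, 8 of the 12 such peaks near the members were at least 2-fold higher in precursor and astrocyte-like glia and 1 was lower, where 32.9% of all peaks were higher and 27.4% lower. The lower peak, chr17:27552421-27553340 near Hmga1, is in exons of Gm49773 and Gm49774. Against oligodendrocyte-like nuclei, 8 of 11 were higher and 0 lower, where 24.9% were higher and 20.3% lower. Between COP-like and astrocyte-like nuclei, 1 of 12 was higher, at Igf2bp2, and 1 was lower, at the intron of Igf2bp3, where 14.2% were higher and 13.9% lower. Peaks near 1 gene share its surroundings and are not independent of each other. Several of the higher peaks reached the minimum in the glia only. Against immune-like nuclei these include the peak before Hmga2, with 37.4 against 3.86 per M, and that of Igf2bp2, with 25.2 against 4.36. The members were also chosen with their RNA levels known, so nothing is read from these counts.

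Hmga1 had an open start site in all the classes compared. The peak over it, which also lies on an exon of Gm49774, chr17:27556279-27557082, held 43.3 per M in precursor and astrocyte-like glia, 70.1 in immune-like and 37.4 in oligodendrocyte-like nuclei of Foxr2 p53LOF. Igf2bp1, with almost no RNA, had weak peaks, at most 3.44 per M in the glia, and no peak over its start. Lin28a had 2 peaks of 2.07 and 4.51 per M.

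Lin28b had no peak within 10 kb of the start site in the files in Foxr2 p53LOF and 1 in each Foxr2 alone library. Over all genes, 4.62% had at least 1 peak in Foxr2 alone replicate 1 and none in Foxr2 p53LOF. The start site in the files, chr10:45470201, lies 16194 bases inside the gene of the annotation, which begins at 45486395. At that 5′ end, looked at after the data were seen, all 3 libraries had a peak. In Foxr2 p53LOF (chr10:45485802-45486719) it held 61.8 per M [56.9, 67.0] in neuron-like nuclei, 12.2 [9.59, 15.2] in COP-like, 5.36 [3.78, 7.37] in astrocyte-like, 2.18 [1.16, 3.73] in immune-like and 1.85 [0.771, 3.72] in oligodendrocyte-like nuclei. In Foxr2 alone replicate 1 (chr10:45485843-45486755) it held 50.8 [48.2, 53.4] in neuron-like nuclei and 7.57 [4.41, 12.1] in precursor and astrocyte-like glia. Open chromatin at this end of Lin28b was highest in neuron-like nuclei in both libraries, as its RNA was.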

How the data were processed

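RNA and ATAC counts of replicate 1 of Foxr2 p53LOF and of Foxr2 alone were the authors' deposited counts per nucleus, made with Cell Ranger ARC 2.0.0 on mm10 with vector sequences added, with cells and peaks called in each library on its own. No counts of Foxr2 alone replicate 2 were analysed here, and only its peaks and barcodes were used. The libraries held 96929539 and 59719847 UMIs in 10379 and 10096 barcodes. Nuclei with at least 400 genes, 400 fragments in peaks (peak counts divided by 2) and at most 5% mitochondrial UMIs were kept. Upper limits on genes, UMIs and fragments in peaks were also set for each library. Then 367 and 529 doublets marked by Scrublet in scanpy 1.11.5 were removed. This left 80.4% and 82.5% of barcodes. The nuclei were clustered with Leiden (leidenalg 0.10.2, resolution 0.5) on 30 principal components of 2000 variable genes. The members, the related genes and 13 vector features, 96 in all, were left out. Clusters were named from at least 3 markers, and the limits of naming were set after the data were seen.

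The members and all gene lists were chosen with earlier results of these data known. UMIs were summed per class and library and scaled to 1000000. Intervals are exact Poisson for levels, conditional exact binomial for ratios and Clopper-Pearson for shares above 0, with scipy 1.17.1, and cover counting error only. A fold against 0 UMIs was taken against a floor of 3 counts over the class, and the limit of a share of 0 was 3 counts of the total. Genes with at least 10 CPM in either sum counted as past the threshold at 2-fold. Since fragments mostly give 2 counts each in a peak, ATAC intervals rest on the count divided by 2. The genes named beside the members were the 5 with the highest correlation to each member of at least 100 UMIs, and up to 4 of each list with the largest ratios, less any that is not reported here. Counting without a stated use of strand means that reads of genes overlapping on the other strand may be mixed. The alternatives tried were other size factors, UMIs per nucleus, no minimum CPM, stricter minimums of 1000, kept doublets, another resolution, other thinning depths and a 2 kb window. Scripts were tested on simulated data. Nothing was tested across samples, since each genotype had 1 library with counts.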

Additional observations from a re-analysis of the deposited data

Results flagged for a closer look

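The ratios of Igf2bp2 and Igf2bp3 between the libraries had opposite signs in different classes. For Igf2bp2 the log2 ratio of Foxr2 p53LOF to Foxr2 alone was -1.61 in neuron-like nuclei, against 8.05 in precursor and astrocyte-like glia, 5.53 in oligodendrocyte-like nuclei and 4.34 in immune-like nuclei. For Igf2bp3 it was -2.44 in neuron-like and -1.35 in oligodendrocyte-like nuclei, against 2.92 in precursor and astrocyte-like glia and 2.20 in immune-like nuclei. With 1 library per genotype, the difference between the classes was not tested. The values of Igf2bp2 in Foxr2 alone rest on 1 UMI in each class but the neuron-like, and in each of these classes the clusters of the libraries are different ones, apart from OPC-like cluster 16 among the glia. In Foxr2 p53LOF, 1.19% of oligodendrocyte-like and 0.355% of neuron-like nuclei had a UMI of Igf2bp2 after thinning. Immune-like nuclei, the background class, had 1.85%, so 5.53 and 4.34 are not read as differences in expression. For -1.61 this holds of the Foxr2 p53LOF side only. In Foxr2 alone, neuron-like nuclei had 6.46 CPM [5.63, 7.39], above the precursor and astrocyte-like glia and the oligodendrocyte-like nuclei. The immune-like level there, 1.73 CPM [0.0437, 9.62] from 1 UMI, overlaps it, and -1.61 is likewise not read as a difference. The intervals of 1.19% and 1.85% overlap, and cluster 20, which has glial markers, held 115 of the 220 immune-like UMIs. The neuron-like and oligodendrocyte-like levels of Igf2bp3 in Foxr2 alone, 26.7 and 18.1 CPM, stood beside 15.5 CPM in its immune-like nuclei, and the part of free RNA in them was not tested. In Foxr2 p53LOF, 9 of 2251 neuron-like and 13 of 1513 oligodendrocyte-like nuclei had a UMI of Igf2bp3 after thinning. Among immune-like nuclei it was 83 of 1618, at 71.3 CPM, so this class does not serve as a background for Igf2bp3. Whether the Foxr2 p53LOF side of -2.44 and -1.35 reflects expression was not tested, and 2.20 compares unlike immune-like clusters.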

How the results depend on the processing

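No paired analysis was possible because only 1 library per genotype had counts here, so the groups share fewer than 2 replicate numbers, and leaving out a replicate was not possible either. Over 165 ratios of members under other settings, 152 kept their direction and 149 their side of 2-fold, but only 123 stayed within the counting interval of the value reported, with 41 outside it (18 of them as UMIs per nucleus) and 1 of at least 2-fold reversed. The other ratios that changed sign were under 2-fold. The log2 ratio of Lin28b in immune-like nuclei between the libraries was 1.14 and turned to -0.48 with minimums of 1000 genes and peak counts, from few UMIs. Taken as UMIs per nucleus, log2 ratios between the libraries were -1.93 for Igf2bp3 and 0.81 for Lin28b in neuron-like nuclei, and 10.93 for Hmga2 and 4.55 for Igf2bp3 in precursor and astrocyte-like glia. Within Foxr2 p53LOF they were 7.35 for Hmga2, 5.52 for Igf2bp2 and 6.24 for Igf2bp3 over oligodendrocyte-like nuclei, and 4.53, 3.44 and 2.40 over immune-like nuclei. Median-of-ratios size factors gave 0.36 for Lin28b in neuron-like nuclei and 5.12 for Hmga2 over oligodendrocyte-like nuclei. Before that rescaling the median of all genes was 0.39 in that comparison and -0.15 in immune-like nuclei between the libraries, where the share of higher genes among those past 2-fold went from 44.2% to 51.2%. Under the stricter minimums, Hmga2 and Igf2bp3 were at 4.83 and 3.43 over oligodendrocyte-like and Hmga2 and Igf2bp2 at 4.41 and 3.14 over immune-like nuclei, and with doublets kept at 4.81, 3.32, 4.51 and 2.95. At resolution 1 the former pair was at 4.95 and 3.47. Without immune-like cluster 20, chosen after seeing the data, the latter pair was at 4.31 and 2.99. Without a minimum CPM, genes past 2-fold were 10248 (against 3431) in neuron-like, 8934 (5453) in precursor and astrocyte-like glia and 6546 (3295) in oligodendrocyte-like nuclei between the libraries, and 7441 (4009), 7643 (3912) and 5186 (2027) for the glia over oligodendrocyte-like, over immune-like, and for COP-like over astrocyte-like. Shares of glia with a UMI unthinned and at 2000 UMIs were 66.4% and 48.0% for Hmga2, 14.7% and 3.98% for Hmga1, 39.7% and 18.5% for Igf2bp2, and 52.4% and 21.9% for Igf2bp3. For Lin28b in neuron-like nuclei they were 82.7% and 39.2% in Foxr2 p53LOF and 71.5% and 33.7% in Foxr2 alone. Within 2 kb of the start sites there were 9, 8 and 6 peaks. Log2 ratios of the ATAC counts near each gene, glia over immune-like nuclei, 3.00, 2.53 and 1.18 for Hmga2, Igf2bp2 and Igf2bp3, were 3.71, 3.25 and 1.90 per nucleus, and 4.60 and 3.30 for Hmga2 and Igf2bp2 under the stricter minimums. The causes of these shifts were not tested. Igf2bp1 and Lin28a had too few UMIs in either library to set a level. The glia of Foxr2 alone held 1750693 UMIs in all, so low levels there rest on few UMIs.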
